A study of Mus musculus with 12 samples.

Results

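The genes described here make and unmake the fibres between cells: the matrix metalloproteinases (Mmp), the ADAMTS proteases and ADAMTS-like proteins (Adamts and Adamtsl), the tissue inhibitors of metalloproteinases (Timp) and lysyl oxidase with its relatives (Lox and Loxl). They were taken by symbol, every gene whose name begins with Mmp or Adamts and a number, or with Adamtsl, together with Timp1, Timp2, Timp3, Timp4, Lox, Loxl1, Loxl2, Loxl3 and Loxl4. Of 23337 genes in the count tables, 56 matched, and 4 of these (Mmp1a, Mmp21, Mmp24 and Mmp27) had no count in any library.

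RNA came from peeled urothelium, the epithelial lining of the urinary tract stripped from the layers beneath it, of mice with intact Stag2 (wild type, WT) or with Stag2 knocked out (KO). All mice, the WT controls included, ate food with TMX for a week, taken to mean tamoxifen, and tissue was taken 1 week or 1 month after that diet began, which gave 4 groups of 3 libraries. Stag2, an X-linked gene, encodes 1 of the alternative subunits of the cohesin ring, which shapes chromatin loops and keeps sister chromatids together, and the comparison asks what its inactivation does to the transcriptome. The labels used here give no strain, age or sex, and they name neither the driver of the recombination nor the deleted part of Stag2.

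Matrix metalloproteinases and ADAMTS proteases are zinc enzymes that cut collagens, proteoglycans and other proteins outside the cell, and some sit in the cell membrane. Timps bind the active site of these enzymes and block it, while lysyl oxidases oxidise lysines of collagen and elastin so that the fibres can be cross-linked. In hollow organs such as the bladder, fibroblasts, smooth muscle, endothelium and macrophages are well-known sources of these transcripts, beside the epithelium itself.

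Total counts per library ran from 5580961 to 9497088, so that 3 counts, used here as a floor, stood for 0.316 to 0.538 CPM, the unit that sets a count against the size of its library. Levels below are CPM on library totals scaled by TMM. The members took 0.220% to 1.00% of a library's counts, and Timp2 alone made up 47.8% to 81.9% of them. Stag2 was at 106 to 162 CPM in WT and 59.7 to 75.9 CPM in KO at 1 week, and at 46.2 to 60.1 CPM in WT and 19.8 to 38.4 CPM in KO at 1 month, where reads from the 3′ end may lie outside the deleted part. At 1 week all WT libraries carried Y-linked Ddx3y (93.8 to 135 CPM) and all KO libraries carried Xist (1123 to 1374 CPM), so genotype and sex cannot be told apart there. At 1 month only KO replicate 3 carried Xist (1212 CPM, against at most 3.49 CPM in the other 5 libraries), so the same holds for batch 3, which pairs it with WT replicate 3. The uroplakin and keratin markers of urothelium summed to 12022 to 31392 CPM with all 15 detected in every library, and fibroblast markers summed to 3583 to 13011 CPM, so the peeled lining also held stromal RNA. KO replicate 3 of 1 week stood apart in single genes, but not in the sum of urothelial markers. The uroplakin gene Upk3a had 826 counts there against 19083 and 11700 in KO replicates 1 and 2 of 1 week. Upk1a, also a uroplakin gene, went the other way, with 32312 counts against 30664 and 18242. The urothelial sum was 14605 CPM in replicate 3, between 15801 and 12022 CPM in the other KO libraries. For the members that stood far higher in replicate 3, fold changes are also given without it.

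At 1 week 40 of the 56 genes had a higher mean level in KO than in WT, 11 a lower one, and none passed the threshold. Of the 32 members that passed the filter on low counts, 25 had a positive and 7 a negative log2 fold change, and the median was 1.17, against 0.024 over all genes tested. No member reached an adjusted p under 0.05 in edgeR's quasi-likelihood test, where 8 of 12754 genes did (0.0627%), and the lowest member value was 0.0856 for Lox. At an unadjusted p under 0.05 there were 17 members, all higher in KO, in a comparison where 15.5% of all genes passed (10.5% higher and 5.03% lower). In 17 of the tested members every KO library lay above every WT library, against 12.4% of all genes tested, and in 1, Adamts15, every KO library lay below, against 14.1%. The untested Adamts14, Adamts18, Adamts19, Mmp10 and Mmp17 also lay above WT in every KO library, but the share of all untested genes that did so was not counted. DESeq2 called 16 members, all 17 of that set except Timp3, where it called 7.5% of all genes. Without KO replicate 3, edgeR called Adamts12, Adamts4, Adamts9, Lox, Mmp2 and Mmp23, beside 2.45% of all genes. Adamts12, Adamts3, Adamts4, Adamts6, Adamts7 and Lox passed the filter through the KO libraries alone, so these counts describe the tested members only. Another 4 members passed through the WT libraries alone. Passing through KO alone favours a higher KO level, and Adamts12, Adamts3, Adamts4 and Lox are among the 17 members above. Of the 24 members that were not tested, 15 had a higher and 4 a lower KO mean, 5 were at 0 in all 6 libraries, and no library exceeded 6.04 CPM. In a bulk sample, more cells of a type and more RNA per cell cannot be told apart.

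At 1 month fewer of these genes stood apart between the genotypes. Of 28 members tested, 18 had a positive and 10 a negative log2 fold change, with a median of 0.23 against -0.0056 over all genes. Again no member was called by edgeR, while 2.22% of 12139 genes were, and Adamts9 came nearest with an adjusted p of 0.0505. At an unadjusted p under 0.05 there were 7 members, all higher in KO (Adamts2, Adamts4, Adamts7, Adamts9, Adamtsl4, Loxl2 and Mmp11), where 21.5% of all genes passed, 11.1% higher and 10.3% lower. Adamts4, Adamts7, Adamts9, Adamts14 and Adamtsl4 had every KO library above every WT library, against 6.88% of all genes, and Mmp15 had every KO library below, against 6.45%. Of the members not tested, Mmp17 lay above and Adamts12, Adamts6 and Mmp12 lay below WT in every KO library. The share of all untested genes that did either was not counted. DESeq2 called Adamts4 and Adamts9, where it called 6.43% of all genes. In the 4 libraries of batch 2, none of which carried Xist, edgeR called Adamts9 and Mmp23, beside 12.2% of all genes. Among the 27 members tested at both times, Adamts4 and Adamts9 were the 2 whose genotypes stood apart in the same direction each time, as did 97 of the 11919 genes tested at both (0.814%). Adamts4, Adamts7 and Adamts14 passed the filter through the KO libraries alone at 1 month, and 1 member passed through the WT libraries alone. Passing through KO alone favours a higher KO level, and these 3 are among the members that lay above WT in every KO library. The share of all genes that passed in this way was not counted.

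**Figure D1:**
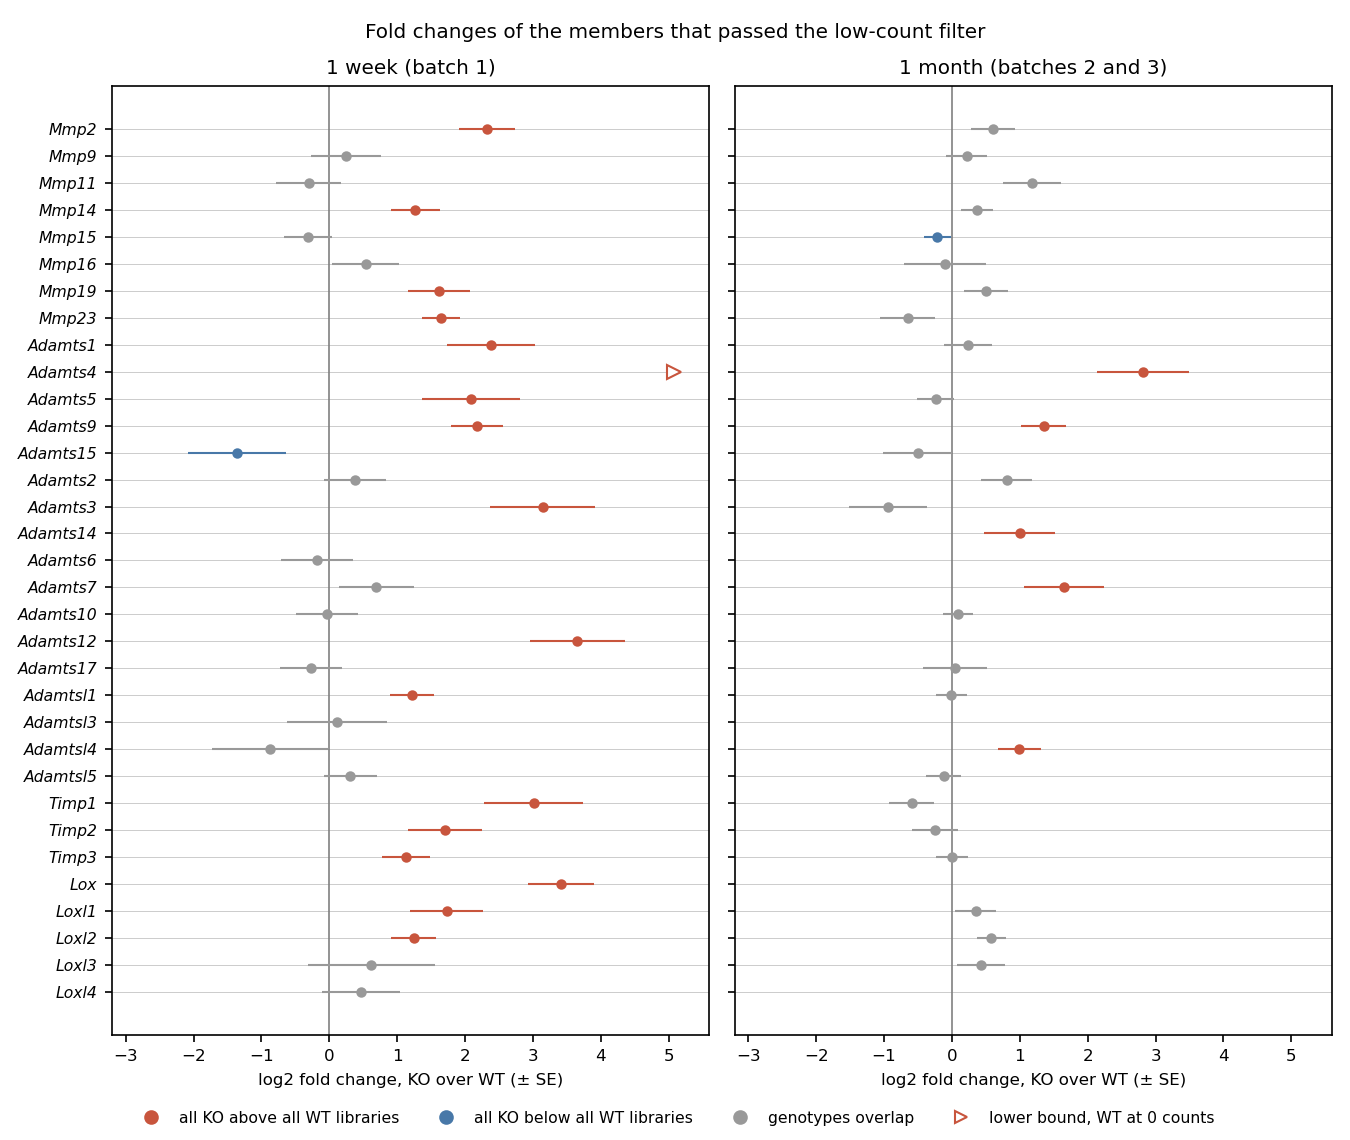
Log2 fold changes of KO over WT (horizontal axis, bars are standard errors) for the members that passed the low-count filter, at 1 week (left) and 1 month (right), with colours for genotypes whose libraries do not overlap and an open triangle for the lower bound of Adamts4. At 1 week 17 members stand to the right without overlap and 1 to the left. At 1 month 5 and 1 do.

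Among the ADAMTS enzymes that cut the large proteoglycans aggrecan and versican, Adamts4 and Adamts9 were higher in every KO library at both times. Adamts4 had no count in any WT library at 1 week, which allows up to 3 counts in each, and 3.37, 19.0 and 12.7 CPM in the KO libraries, at least 33.8-fold higher in the mean (adjusted p = 0.0937). At 1 month it was at 0.978, 1.57 and 0.305 CPM in WT and 2.24, 10.6 and 7.49 CPM in KO (log2 fold change 2.81, SE 0.68, adjusted p = 0.0519). All 6 KO libraries thus lay above the WT libraries of their time.

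Adamts9, which also cuts versican, was at 1.96, 2.75 and 3.37 CPM in WT and 12.8, 10.7 and 11.7 CPM in KO at 1 week, which made a log2 difference of 2.18, SE 0.39, adjusted p = 0.0937. At 1 month WT had 3.32, 5.77 and 5.95 CPM and KO 10.6, 12.6 and 17.0 CPM, a log2 difference of 1.35, SE 0.33, adjusted p = 0.0505. The 6 KO values lie within 10.6 and 17.0 CPM and no WT value exceeded 5.95 CPM, whatever the time. Over the alternative settings the adjusted p of Adamts9 at 1 month ran from 0.00315 without a filter to 0.443 without the batch covariate. Within batch 2 its log2 difference was 1.34 and within batch 3 it was 1.47, where Adamts4 had 1.78 and 3.73.

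Adamts1, another versican-cutting enzyme, was at 13.5, 22.5 and 11.3 CPM in WT and 23.6, 138 and 76.5 CPM in KO at 1 week (log2 fold change 2.39, SE 0.65, adjusted p = 0.167). The KO values did not overlap those of WT but spread widely, with replicate 1 barely above the highest WT library, and the log2 fold change was 1.71 without replicate 2. At 1 month WT had 17.8, 20.5 and 52.0 CPM and KO 21.1, 45.6 and 31.8 CPM, and the genotypes overlapped. Adamts5, the main aggrecanase of mouse cartilage, had 23.8, 15.5 and 29.5 CPM in WT and 48.1, 30.3 and 196 CPM in KO at 1 week (log2 fold change 2.09, SE 0.72, adjusted p = 0.240). Its size rested on KO replicate 3, since the log2 fold change was 0.76 without that library. At 1 month Adamts5 was at 21.7, 21.1 and 16.8 CPM in WT and 12.7, 19.3 and 20.3 CPM in KO, again with overlap. Adamts15 went the other way at 1 week, with 5.15, 4.47 and 2.94 CPM in WT and 1.89, 2.48 and 0.193 CPM in KO (log2 fold change -1.36, SE 0.72, adjusted p = 0.407), and at 1 month WT had 2.74, 5.07 and 4.88 CPM and KO 1.25, 4.57 and 3.59 CPM. The lowest Adamts15 value, in KO replicate 3 of 1 week, stood for 1 count. Adamts8 and Adamts20 were not tested at either time and reached at most 0.971 and 1.96 CPM.

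**Figure D2:**
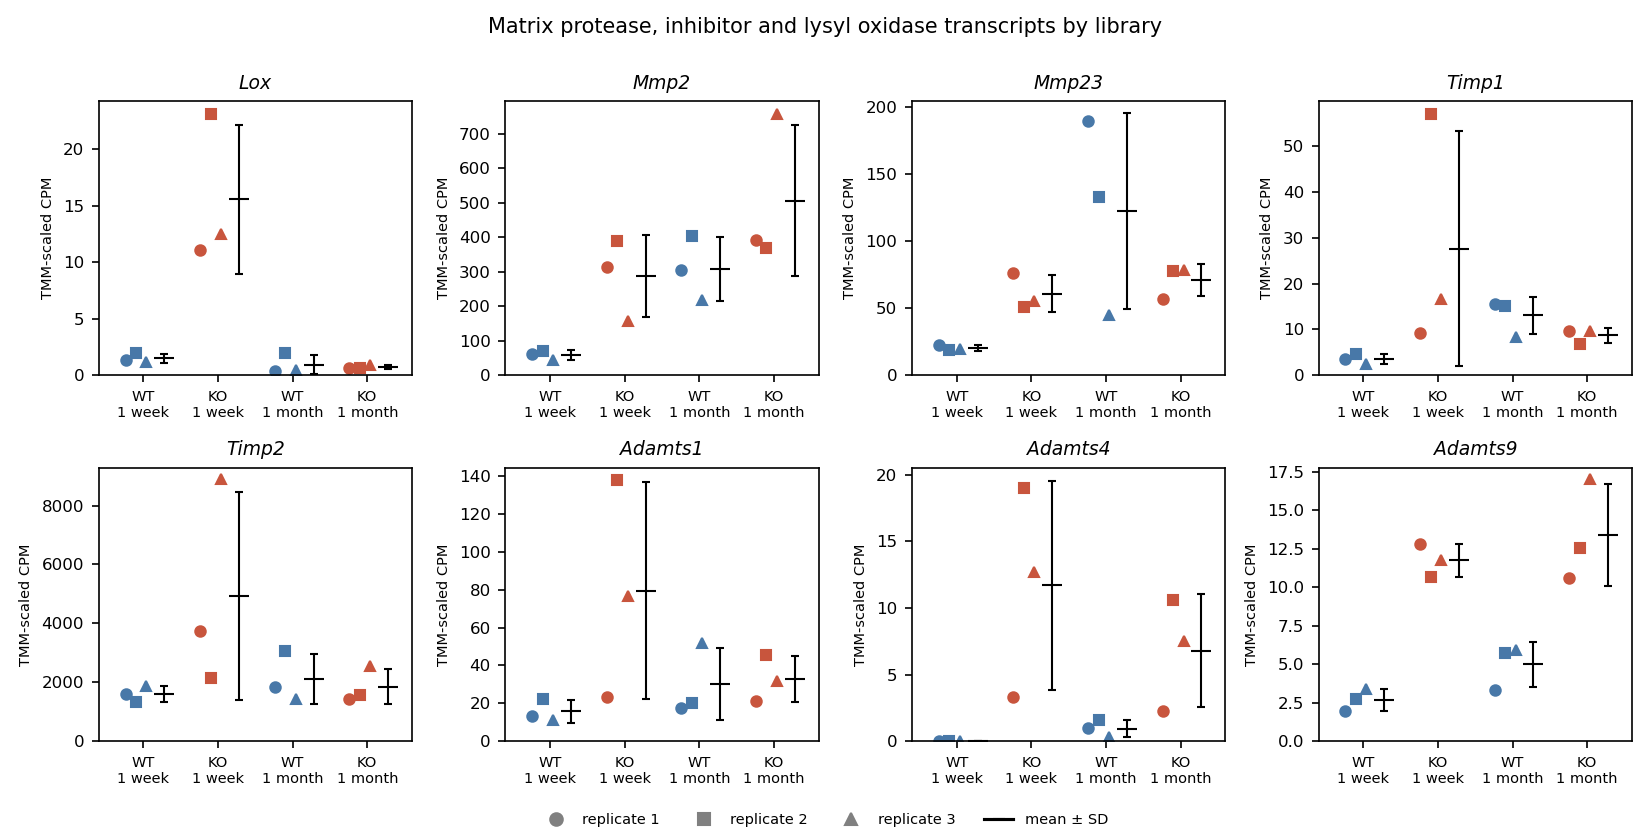
TMM-scaled CPM (vertical axes, linear from 0) of 8 members in each of the 12 libraries, with WT in blue, KO in red, a symbol for each replicate number and the mean ± SD of 3 libraries as a bar. Adamts9 and Adamts4 are higher in KO at both times, while Lox, Timp1, Timp2 and Adamts1 are apart at 1 week and overlap at 1 month.

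Among the metalloproteinases, the gelatinase Mmp2, which degrades denatured collagen and basement membrane collagen, had the largest difference in CPM at 1 week. WT libraries were at 62.7, 70.6 and 43.5 CPM and KO libraries at 313, 390.2 and 158 CPM (log2 fold change 2.33, SE 0.41, adjusted p = 0.0941). Even the lowest KO library held more than any WT library. At 1 month the levels were 304, 403 and 218 CPM in WT and 392, 369.6 and 759 CPM in KO (0.61, SE 0.32, adjusted p = 0.299), and the genotypes overlapped. The difference at 1 month came from batch 3, where it was 1.80 on the log2 scale against 0.12 in batch 2. The other gelatinase, Mmp9, was at 3.92 to 8.59 CPM in WT and 3.85 to 10.7 CPM in KO at 1 week, with overlap at both times.

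Mmp14, the membrane-type enzyme that activates pro-Mmp2 together with Timp2, had 75.7, 82.1 and 81.1 CPM in WT and 116, 171 and 261 CPM in KO at 1 week (log2 fold change 1.27, SE 0.36, adjusted p = 0.174). The WT libraries lay close together there and all KO libraries lay above them. At 1 month it was at 104, 185 and 153 CPM in WT and 180.0, 178 and 237 CPM in KO, and the ranges overlapped. Mmp15, another membrane-type enzyme, lay at 66.1, 67.3 and 78.1 CPM in WT and 64.1, 64.8 and 59.3 CPM in KO at 1 month (-0.21, SE 0.20, adjusted p = 0.551), a separation that was lost, with the sign turned to 0.010, when libraries were scaled by their totals alone. At 1 week Mmp15 overlapped, at 63.3 to 69.5 CPM in WT and 37.2 to 78.2 CPM in KO. Mmp16 stayed between 0.624 and 3.77 CPM in all libraries, with overlap at both times. Mmp17, not tested at either time, was at 0.196, 0.175 and 0 CPM in WT and 0.499, 1.63 and 1.09 CPM in KO at 1 month, with the WT libraries at or under the floor, and it is named after its values were seen.

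Mmp23, a small enzyme anchored by its amino-terminal end, was apart between the genotypes at 1 week, with 22.5, 18.9 and 19.3 CPM in WT and 76.5, 50.9 and 55.1 CPM in KO (log2 fold change 1.65, SE 0.29, adjusted p = 0.0927). At 1 month the WT libraries were at 189.9, 133 and 45.0 CPM and the KO libraries at 57.1, 77.6 and 78.5 CPM (-0.65, SE 0.40, adjusted p = 0.387). The 2 batches of 1 month disagreed in sign, since the log2 difference was -1.25 in batch 2 and 0.80 in batch 3. The call of Mmp23 in batch 2 was therefore for a lower level in KO, opposite to 1 week. Mmp19, which acts on basement membrane proteins, was at 5.28, 4.13 and 2.61 CPM in WT and 9.96, 16.9 and 8.67 CPM in KO at 1 week (log2 fold change 1.62, SE 0.46, adjusted p = 0.174), and at 4.89, 10.1 and 11.7 CPM and 10.6, 9.31 and 20.9 CPM at 1 month, where the genotypes overlapped. Mmp28, not tested at either time, did not exceed 1.68 CPM in any library. Mmp11, stromelysin 3, had 2.61 to 5.50 CPM in WT and 2.48 to 4.04 CPM in KO at 1 week, then 2.74, 2.62 and 4.27 CPM in WT and 9.97, 3.92 and 8.27 CPM in KO at 1 month (log2 fold change 1.18, SE 0.43, adjusted p = 0.140). Its difference at 1 month held in both batches, at 1.15 and 0.91 on the log2 scale, though KO replicate 2 lay below the highest WT library, and the log2 fold change was 0.73 without KO replicate 1.

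The classical inducible enzymes, the collagenases, 2 of the 3 stromelysins, matrilysin and metalloelastase, sit side by side on mouse chromosome 9, and 10 members lie in chr9:7272514-7699585 (GRCm38). They were near silent: the highest count of any of them in any library was 56, for Mmp10, and 9 for all others. Mmp10, stromelysin 2, had counts of 0, 1 and 0 in the WT libraries and 3, 56 and 30 in KO at 1 week, and at most 1 at 1 month. It did not pass the filter at 1 week or 1 month, so it has no test. Summed over the cluster, the counts at 1 week were 0, 4 and 6 in WT and 12, 64 and 36 in KO, and at 1 month 9, 6 and 18 in WT and 1, 2 and 0 in KO. Mmp12, the macrophage metalloelastase, made up much of the WT counts at 1 month, with 1.56, 0.699 and 1.37 CPM in WT and 0, 0.163 and 0 CPM in KO, and is named after its values were seen. Beside it, the macrophage markers summed to 433 to 895 CPM in WT and 231 to 306 CPM in KO at 1 month, and their part in the Mmp12 level was not tested. Mmp1a and Mmp1b are close copies between which reads can be split, and Mmp1b overlaps Mmp12 on the opposite strand.

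In this cluster, 8 of the 10 members had a promoter with a sequence feature that the choice of genes did not use. The AP-1 motif TGANTCA, which is its own reverse complement and is bound by Fos and Jun proteins, occurred in 2565 of 32851 RefSeq promoters of GRCm38.p6 (7.81%), each 250 bases before to 50 after a gene's start. Promoters were found for 37 members, 40 promoters in all, and the motif was in 8 of them: those of Mmp10, Mmp12, Mmp13, Mmp1a, Mmp1b, Mmp20, Mmp3 and Mmp7, all in the cluster, at positions -95 to -35 from the start. Mmp8 and Mmp27, also in the cluster, did not hold it, and neither did any of the 27 members outside the cluster that had a promoter. This says only that these letters are not in this window. The 100 bases before the start are shown for the inducible Mmp10, Mmp3 and Mmp13, with the motif in capitals, and for Adamts9 and Timp1, which were higher in KO at 1 week and carry no such motif. They are at chr9:7502242-7502341 (Mmp10), chr9:7445722-7445821 (Mmp3), chr9:7272414-7272513 (Mmp13), chr6:92943535-92943634 (Adamts9, minus strand) and chrX:20870066-20870165 (Timp1), on the plus strand where not stated.
Mmp10: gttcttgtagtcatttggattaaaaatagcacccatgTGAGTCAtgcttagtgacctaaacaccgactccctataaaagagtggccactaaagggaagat
Mmp3: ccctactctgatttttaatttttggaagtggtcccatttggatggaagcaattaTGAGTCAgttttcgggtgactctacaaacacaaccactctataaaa
Mmp13: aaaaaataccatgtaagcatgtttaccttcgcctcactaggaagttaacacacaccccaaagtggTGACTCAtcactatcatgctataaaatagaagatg
Adamts9: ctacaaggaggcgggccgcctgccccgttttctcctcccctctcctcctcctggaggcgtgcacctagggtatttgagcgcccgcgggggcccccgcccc
Timp1: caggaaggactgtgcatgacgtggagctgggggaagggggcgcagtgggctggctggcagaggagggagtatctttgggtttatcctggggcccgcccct
The immediate early genes, a list that holds AP-1 subunits beside other genes, summed to 230 to 280 CPM in WT and 264, 399 and 1658 CPM in KO at 1 week. Egr1, on this list but neither a Fos nor a Jun gene, rose from 127 to 182 raw counts (WT) to 336, 1331 and 4373 (KO replicates 1 to 3). Junb ran the other way, with 241 to 715 raw counts for KO against 728 to 847 for WT. Raw counts of Fos (KO 347 to 1407, WT 273 to 556) and Jun (KO 653 to 2233, WT 461 to 896) overlapped between genotypes. Fosb and Fosl1, at low counts, were higher in every KO library. Fosb had 12, 9 and 15 raw counts in WT and 21, 41 and 63 in KO. Fosl1 had 0 in all WT libraries and 1, 19 and 1 in KO. The AP-1 subunits were not summed alone. Among the KO libraries of 1 week, Mmp10 counts and the sum over the whole list were both lowest in replicate 1. They peaked in different libraries, and a link between them was not tested.

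The procollagen N-proteinases Adamts2, Adamts3 and Adamts14, which trim the amino-terminal propeptide of fibrillar collagens, behaved differently from one another. Adamts3 was at 0.368, 1.15 and 0.435 CPM in WT and 3.23, 3.24 and 10.6 CPM in KO at 1 week (log2 fold change 3.15, SE 0.77, adjusted p = 0.139). Each KO library was above WT, and replicate 3 was far above the other KO libraries, without which the log2 fold change was 2.27. At 1 month it was at 3.52, 1.75 and 2.29 CPM in WT and 2.49, 0.980 and 0.624 CPM in KO, with overlap. Adamts2 had 3.27 to 8.84 CPM in WT and 7.27 to 8.41 CPM in KO at 1 week, then 2.93, 4.89 and 7.01 CPM and 4.99, 9.15 and 13.1 CPM at 1 month (log2 fold change 0.81, SE 0.37, adjusted p = 0.231). Its within-batch log2 differences at 1 month were 0.79 and 0.88, close to each other, while WT replicate 3 overlapped the KO range. Adamts14 was too low to be tested at 1 week, where it had 0.245, 0.344 and 0.109 CPM in WT and 0.943, 1.40 and 0.963 CPM in KO, and at 1 month it was at 0.782, 1.40 and 1.52 CPM and 1.75, 2.94 and 3.12 CPM (1.00, SE 0.53, adjusted p = 0.291). Its KO libraries lay above WT at both times, but only the second was tested.

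Of the other ADAMTS enzymes, Adamts12, which cuts cartilage oligomeric matrix protein, had the largest fitted fold at 1 week among the tested members that had counts in both genotypes. It was at 0.368, 0.688 and 0.544 CPM in WT and 3.77, 3.99 and 12.1 CPM in KO (log2 fold change 3.65, SE 0.70, adjusted p = 0.107), and the log2 fold change without KO replicate 3 was 2.82. At 1 month, where it did not pass the filter, it was at 1.17, 1.40 and 1.52 CPM in WT and 0.125, 1.14 and 0.780 CPM in KO, each KO library below each WT library. Adamts7, another protease of that matrix protein, was at 0.980 to 2.41 CPM in WT and 1.73 to 3.88 CPM in KO at 1 week and at 1.37, 1.22 and 1.07 CPM and 2.49, 1.96 and 10.1 CPM at 1 month (log2 fold change 1.65, SE 0.58, adjusted p = 0.131). That value leaned on KO replicate 3, without which the log2 fold change was 0.74, a value that rests on batch 2. The log2 difference was 0.66 in batch 2 and 2.95 in batch 3. Adamts10, which binds fibrillin, was at 10.6 to 28.4 CPM in WT and 11.9 to 20.3 CPM in KO at 1 week and at 29.4 to 35.3 CPM and 31.8 to 41.0 CPM at 1 month. Adamts17 lay between 1.54 and 5.31 CPM in all libraries, and both overlapped between genotypes at each time. Adamts6 was at 0.917 to 2.61 CPM in WT and 1.35 to 1.73 CPM in KO at 1 week and, untested, at 2.15, 1.05 and 1.68 CPM and 0.374, 0.653 and 0 CPM at 1 month. The KO libraries of 1 month lay below WT there, at or near the floor. Adamts13, Adamts16, Adamts18 and Adamts19 were not tested at either time.

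The ADAMTS-like proteins lack the protease domain and bind the matrix, several of them fibrillin microfibrils. Adamtsl1 was at 20.6, 30.7 and 19.0 CPM in WT and 53.5, 43.6 and 60.1 CPM in KO at 1 week (log2 fold change 1.21, SE 0.32, adjusted p = 0.159), with all KO values above all WT values. At 1 month it was at 33.0, 35.8 and 56.7 CPM and 25.9, 32.7 and 83.8 CPM, with overlap. It shares its strand with Sh3gl2, which overlaps it. Adamtsl4 showed the reverse order of times: at 1 week WT had 15.2, 13.1 and 10.6 CPM and KO 12.7, 7.44 and 0.385 CPM, and at 1 month WT had 5.48, 12.1 and 13.4 CPM and KO 16.5, 24.2 and 22.6 CPM (log2 fold change 0.99, SE 0.32, adjusted p = 0.109). The KO libraries were apart and higher at 1 month alone, and the low end at 1 week was again KO replicate 3. Adamtsl5 was at 5.55 to 7.11 CPM in WT and 5.72 to 9.82 CPM in KO at 1 week, and Adamtsl3 at 1.31 to 3.80 and 1.08 to 4.62 CPM, all overlapping. Adamtsl2 was not tested at either time.

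All 3 inhibitors that were tested stood higher in KO at 1 week. Timp1 was at 3.44, 4.70 and 2.50 CPM in WT and 9.29, 57.1 and 16.6 CPM in KO (log2 fold change 3.01, SE 0.73, adjusted p = 0.139). The KO mean rested largely on replicate 2, and without that library the log2 fold change was 1.89. At 1 month the order of means was the opposite, with 15.6, 15.2 and 8.39 CPM in WT and 9.60, 6.70 and 9.68 CPM in KO (-0.59, SE 0.33, adjusted p = 0.314), and the ranges overlapped. The batches disagreed in sign, with a log2 difference of -0.92 in batch 2 and 0.20 in batch 3. Timp1 lies on chromosome X within Syn1, which is read from the opposite strand, and for this X-linked gene too sex and genotype cannot be told apart at 1 week.

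Timp2, the inhibitor that also helps Mmp14 activate Mmp2, was the most abundant member by far. Its WT libraries were at 1599.7, 1323 and 1870.3 CPM and its KO libraries at 3760.1, 2162 and 8904 CPM at 1 week (log2 fold change 1.71, SE 0.55, adjusted p = 0.213). KO replicate 3 alone held 8904 CPM, and the log2 fold change without it was 0.87. At 1 month Timp2 was at 1841, 3064 and 1439 CPM in WT and 1455, 1577 and 2544 CPM in KO, with full overlap and a sign that differed between batches (-0.65 and 0.82). Cep295nl overlaps Timp2 on the same strand, so reads there could have been left out or shared by the authors' counting. Timp3, which is held in the matrix, was at 351, 306 and 275 CPM in WT and 404, 713 and 828 CPM in KO at 1 week (log2 fold change 1.13, SE 0.36, adjusted p = 0.208) and at 534, 611 and 341 CPM and 437, 618 and 449 CPM at 1 month, where the genotypes overlapped. Timp4 was not tested and stayed at or under 1.63 CPM.

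The lysyl oxidases were led by Lox itself, the member with the lowest adjusted p at 1 week. Lox (chromosome 18) was at 1.35, 1.95 and 1.20 CPM in WT and 11.0, 23.1 and 12.5 CPM in KO (log2 fold change 3.42, SE 0.49, adjusted p = 0.0856). The genotypes were far apart, and the highest WT library was well below the lowest KO library. At 1 month, where it did not pass the filter, Lox was at 0.391, 1.92 and 0.457 CPM in WT and 0.623, 0.653 and 0.937 CPM in KO, under 1 CPM in all libraries but WT replicate 2. Loxl1, which is needed for elastic fibres, was at 30.3, 26.6 and 14.4 CPM and 65.0, 129 and 34.7 CPM at 1 week (log2 fold change 1.73, SE 0.53, adjusted p = 0.201), and at 48.3, 64.1 and 38.0 CPM and 40.9, 67.6 and 94.7 CPM at 1 month. Its genotypes were apart at the first time by a narrow gap, with a log2 fold change of 1.08 without KO replicate 2, and overlapped at the second. Loxl2, which also acts on basement membrane collagen, was at 46.5, 53.8 and 51.7 CPM and 76.7, 153 and 114 CPM at 1 week (log2 fold change 1.24, SE 0.33, adjusted p = 0.159), with no overlap. At 1 month it was at 36.4, 51.7 and 102 CPM and 66.1, 81.8 and 136 CPM (0.58, SE 0.22, adjusted p = 0.152). WT replicate 3 was above 2 of the KO libraries there, while within its batch the KO library was higher. Loxl3 was at 1.41 to 2.33 CPM in WT and 0.193 to 6.58 CPM in KO at 1 week, and Loxl4 at 1.31 to 3.10 and 1.73 to 4.96 CPM, both with overlap.

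**Figure D3:**
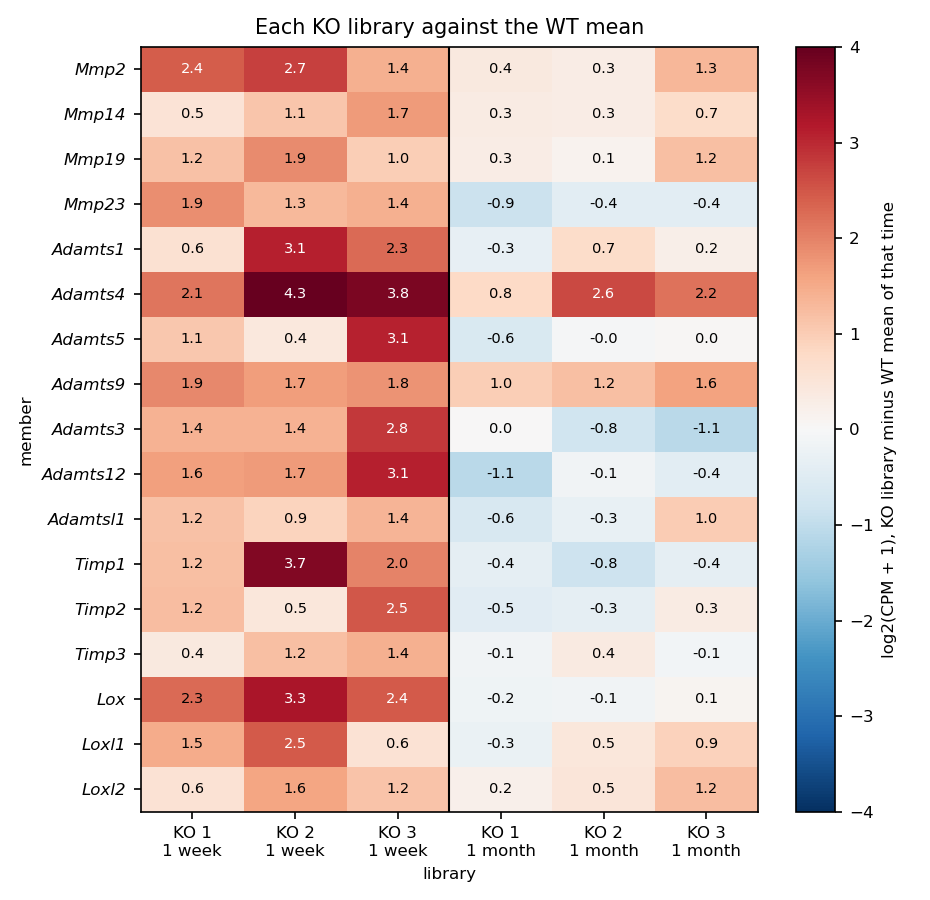
Each KO library minus the WT mean of its time, as log2(CPM + 1), for the 17 tested members that were higher in every KO library at 1 week (rows), with the 3 KO libraries of 1 week on the left and those of 1 month on the right. All cells of 1 week are positive, which the choice of rows fixes in advance. At 1 month the 3 cells are all positive for Mmp2, Mmp14, Mmp19, Adamts4, Adamts9 and Loxl2, all negative for Mmp23, Adamts12 and Timp1, and of both signs for the rest. The WT mean of 1 month spans batches 2 and 3. Within batch 3 the log2 difference was 0.80 for Mmp23, 0.20 for Timp1 and -0.77 for Adamts12.

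The KO libraries of 1 week did not share 1 ranking. Among the 17 tested members that were higher in all of them, KO replicate 1 held the highest level for 2 (Adamts9 and Mmp23), replicate 2 for 8 (Adamts1, Adamts4, Lox, Loxl1, Loxl2, Mmp19, Mmp2 and Timp1) and replicate 3 for 7 (Adamts12, Adamts3, Adamts5, Adamtsl1, Mmp14, Timp2 and Timp3). Fibroblast markers summed to 7629, 9810 and 4414 CPM in these 3 libraries. The members of that list differed, since Pdgfra was at 136, 154 and 675 CPM and Dpt at 47.0, 56.3 and 114 CPM, both highest in replicate 3, while Col1a1 was lowest there at 2904, 2593 and 1242 CPM.

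An interaction term over all 12 libraries tested how far the KO effect of 1 month departed from that of 1 week. No member was called by edgeR, and neither was any other gene (0 of 13122, 0%). At an unadjusted p under 0.05 there were 13 of 33 members tested, where 19.9% of all genes passed, and in 12 of the 13 the effect was lower at 1 month, as it was in 12% of all genes. Among these 12, Adamts12, Adamts3, Adamts4 and Lox passed the filter of 1 week through the KO libraries alone. Adamts12 and Lox did not pass it at 1 month, so their place in this test favoured a lower effect there. The median difference over the members was -1.11 on the log2 scale, against -0.037 over all genes. The lowest p-values were those of Adamts12 with -4.72, SE 1.06, adjusted p = 0.104, Lox with -3.75, SE 0.89, adjusted p = 0.104, Timp1 with -3.61, SE 0.86, adjusted p = 0.104, Adamts3 with -4.11, SE 1.03, adjusted p = 0.111 and Mmp23 with -2.28, SE 0.56, adjusted p = 0.111. Adamts4, at 0 in WT at 1 week, and Adamts1, Adamts5, Adamtsl1, Mmp2, Timp2 and Timp3 were the others with a lower effect, and Mmp11 was the 1 with a higher effect (1.51, SE 0.66, adjusted p = 0.238). DESeq2 called Adamts12, Adamts3, Adamts4, Lox, Mmp23 and Timp1 in the same contrast, where it called 6.99% of all genes. Adamts9, higher in KO at both times, was not among the 13. Time and sequencing batch cannot be told apart in this contrast, since all libraries of 1 week were in batch 1. Sex enters it too, because every KO library of 1 week carried Xist but at 1 month only KO replicate 3 did. A change of the KO effect with time and a sex difference therefore cannot be told apart here.

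Genes that work with these enzymes were counted from lists set by function. Of 25 tested substrates and partners of lysyl oxidases (collagens, elastin, fibrillins and the like), 24 had a positive log2 fold change at 1 week, 19 of them at an unadjusted p under 0.05, with a median of 1.50 and none called. At 1 month 10 were positive and 15 negative, and 1 was called, Fmod, the small proteoglycan fibromodulin that guides Lox on collagen, which was lower in KO (log2 fold change -4.13, SE 0.44, adjusted p = 0.000968). All 7 tested ADAMTS substrates had positive values at 1 week, 6 of them at an unadjusted p under 0.05, and Vcan, versican, the substrate of Adamts1, Adamts4, Adamts5 and Adamts9, was called with 3.01, SE 0.30, adjusted p = 0.0275. At 1 month 2 were positive and 5 negative, with none called. Protease regulators such as plasminogen activators and their inhibitors were mixed, with 11 positive and 5 negative at 1 week and 7 of each at 1 month, where Serpine2, an inhibitor of thrombin and plasminogen activators, was lower with -0.97, SE 0.23, adjusted p = 0.0438. Other extracellular proteases had 13 positive and 5 negative values at 1 week, and 6 and 11 at 1 month, where the lysosomal protease Ctsd was lower with -1.45, SE 0.27, adjusted p = 0.0222.

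Marker lists of other cells were set beside the member levels. At 1 week all 8 fibroblast, all 6 endothelial and all 6 tested macrophage markers and 5 of 6 smooth muscle markers had positive log2 fold changes, with 5, 2, 4 and 3 of them at an unadjusted p under 0.05 and none called. Smooth muscle markers summed to 111 to 284 CPM in WT and 350 to 1067 CPM in KO, and macrophage markers to 106 to 190 and 251 to 494 CPM. All 7 proliferation markers were positive, with sums of 35.6 to 45.9 CPM in WT and 123 to 672 CPM in KO. The urothelial markers split into 6 positive and 9 negative. The neutrophil list was low, at 25.4 to 38.9 CPM in WT and 19.6 to 25.9 CPM in KO, the lymphocyte and mast cell list lay at 6.31 to 8.37 and 5.39 to 10.4 CPM, and the neutrophil gene Ngp was at 0 throughout. The part of these cells in the levels of the proteases, inhibitors and oxidases at 1 week was not tested.

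At 1 month the lists pointed in different directions. All 6 tested macrophage markers were negative, and Csf1r, C1qa and C1qb were called lower in KO. Of 6 endothelial markers 5 were positive, with sums of 155 to 193 CPM in WT and 220 to 404 CPM in KO, and the fibroblast marker Pdgfrb, also a pericyte gene, was called higher with 1.30, SE 0.24, adjusted p = 0.0218 while 4 of the 8 fibroblast markers were negative. Smooth muscle markers reached 949 CPM in WT replicate 3 against 87.8 and 166 CPM in the other WT libraries. The urothelial marker Krt20, of the superficial layer, was called lower. The higher Adamts4 and Adamts9 levels in KO at 1 month thus stood beside higher endothelial and lower macrophage sums, and the part of either was not tested.

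**Figure D4:**
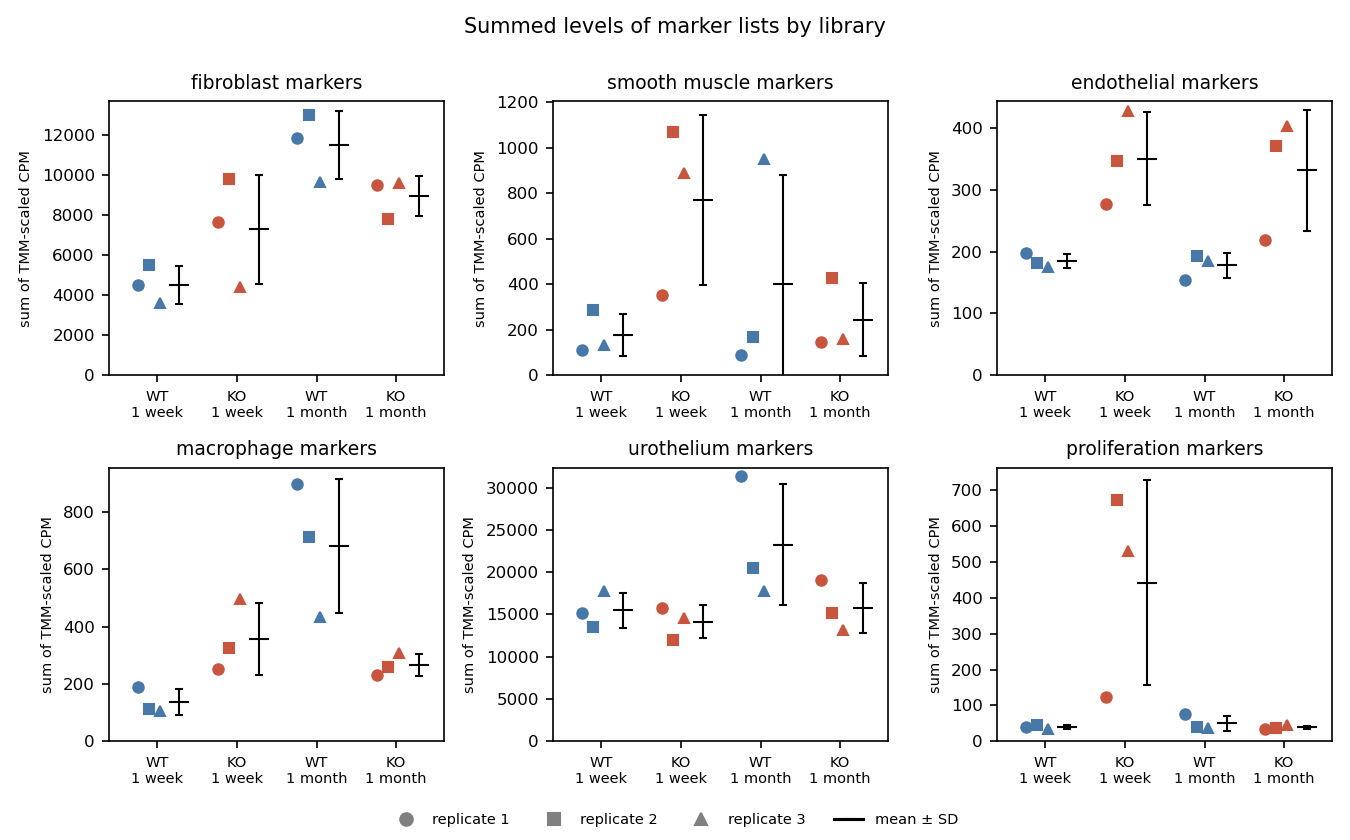
Summed TMM-scaled CPM (vertical axes, linear from 0) of 6 marker lists in each of the 12 libraries, with WT in blue, KO in red and the mean ± SD of 3 libraries as a bar. Smooth muscle, endothelial, macrophage and proliferation sums are higher in all KO libraries at 1 week, and at 1 month macrophage sums are lower and endothelial sums higher in KO.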

How the data were processed

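The authors deposited a table of raw counts per gene for each time, 2 tables over the same genes with a column for each library, and every column was matched to a sample. Per the labels' protocols, libraries were 3′-end mRNA libraries of total RNA (QuantSeq, forward version) whose reads carry the sense strand, with HTSeq set to use strand. The submitters' processing notes name Bowtie, TopHat, HTSeq, DESeq2 and the build mm10, without versions. Read 3′ ends make 1 kind of fragment per transcript, so CPM were not divided by length.

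Genotype and time in the labels set the groups, and replicate numbers follow accession order. Batch 1 held all libraries of 1 week, batch 2 replicates 1 and 2 and batch 3 replicate 3 of both genotypes at 1 month. The labels give each library an animal number of its own, and no pair of replicates within a group had counts within sampling noise. Libraries of different groups were not compared in this way. The title and the library name of WT replicate 3 at 1 month carry different animal numbers, and the library name was used to find its column.

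Genotypes were compared with edgeR (version 4.0.16, in R 4.3.3), by its quasi-likelihood test with robust dispersions, TMM scaling and the default low-count filter by group. Tests were two-sided, p-values were adjusted by Benjamini-Hochberg across every gene in the fit, and an adjusted p under 0.05 was called. The times were fitted separately, batch was a term at 1 month, and the interaction used all 12 libraries. Standard errors were derived from the log2 fold change and the root of the test's F value. DESeq2 (version 1.42.0), other scaling, other filters and leaving out libraries were alternatives. The steps were tested on simulated counts in which 200 genes were changed 4-fold. At an adjusted p under 0.05, edgeR recovered 17.5% of them at 1 week, 88% at 1 month and 7.5% in the interaction. Most changes of that size were thus missed at 1 week and in the interaction. CPM per library used TMM over all 12 libraries. Within-batch differences are of mean log2 CPM with a prior count of 2.

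The members and gene lists were chosen with earlier results of these data known. Named with values were members at 1 CPM or more on average over the libraries, and members without overlap that passed the filter, and of other lists up to 3 called genes per list and time. Coordinates are from GENCODE M21 (GRCm38) and promoters from RefSeq (GRCm38.p6). Protein sequences were not used here. Floors of 3 counts cover counting error only, since the labels name no molecular identifiers.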

Additional observations from a re-analysis of the deposited data

Results flagged for a closer look

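Adamts12 stood apart between the genotypes in opposite directions at the 2 times. All 3 KO libraries were above all WT libraries at 1 week (counts of 28, 37 and 63 against 3, 6 and 5). At 1 month all were below them in CPM (0.125, 1.14 and 0.780 against 1.17, 1.40 and 1.52), by a narrow gap, while the raw counts overlapped (1, 7 and 5 against 6, 8 and 10). The interaction gave a difference of -4.72 on the log2 scale (SE 1.06), with an adjusted p of 0.104 in edgeR's test, which is above the threshold. The counts at 1 month were too low for the filter, so the lower level there was not tested on its own. No other member that was tested in the interaction showed this reversal of CPM in every library.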

How the results depend on the processing

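No member passed the threshold in the 3 comparisons as reported, and the number of members called depended on the setting. Each number of called members named with its setting is given with the share of all genes called there. At 1 week it was 2 without a filter on low counts (Adamts4 and Lox, 0.328% of all genes), 16 with DESeq2 (7.5%) and 11 with all 12 libraries in one fit (4.21%). At 1 month it was 2 with the size factors of DESeq2 (2.41%), 2 with library size alone (4.62%) and 2 with DESeq2 (6.43%), Adamts4 and Adamts9 each time. It was 1, Adamts9, without the 10 most abundant genes (2.43%) and with a mean of at least 20 counts (2.42%), 5 without a filter (Adamts4, Adamts7, Adamts9, Adamtsl4 and, lower in KO, Mmp12, 7.09%) and 2 in batch 2 alone (12.2%). In the interaction it was 3 without a filter (0.7%) and 6 with DESeq2 (6.99%). Leaving out 1 library gave 0 to 6 called members at 1 week (6 without KO replicate 3, 2.45%), 0 to 2 at 1 month (2 without WT replicate 3 and without KO replicate 3, 12.3% each) and 0 to 4 in the interaction (4 without KO replicate 3 of 1 week, 2.32%). Without either replicate 3 of 1 month the genotype difference rests on batch 2, since the batch term takes up the 1 library left in batch 3. Those fits are therefore not separate from that of batch 2 alone. At an unadjusted p under 0.05, leaving out 1 library left 16 to 18 members at 1 week, 5 to 9 at 1 month and 8 to 16 in the interaction. Without a filter 12 members reached that level at 1 month. The share of all genes at that level was not counted under these settings. With CPM on library size alone, 0 tested members were lower in KO without overlap at 1 month and 7 were higher, against 1 and 5 with TMM. The share of all genes was counted with TMM only (6.45% lower and 6.88% higher), so the 7 have no share to be set against. With library size alone Mmp15 turned from -0.21 to 0.010 on the log2 scale. The cause of these changes was not tested.

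Over 53 member results compared in 885 alternative values, 810 kept their direction and their side of the threshold, 74 passed the threshold in place of missing it, and 1, that of Mmp15, changed sign. No paired analysis was possible because the labels carry no replicate numbers, and those used here follow accession order. With 3 libraries per group and wide spread among the KO libraries of 1 week, a p above the threshold does not show equal levels. Members under the floor of 0.316 to 0.538 CPM could not be compared at this depth.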
